A study of Mus musculus with 3 samples.

Results

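Cytosolic ribosomal proteins were represented by 75 of the 20595 UniGene clusters (sets of expressed sequences taken to stand for 1 gene) to which sequence tags from mouse skin had been assigned. The clusters were chosen by name: the gene symbol starts with Rpl or Rps and a number, or is Rplp0, Rplp1, Rplp2 or Rpsa, and ribosomal S6 kinases and pseudogenes were left out. The symbols came from the clusters' descriptions or from exact matches of the tags to mouse transcripts, and the naming rule uses no measured level. The 75 clusters carry 54 symbols. In 56 of them (43 symbols) the tags read along the sense strand of the named gene, in 9 they read the opposite strand, and in 10 they matched neither.

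The 3 whole-skin libraries were compared, 1 per day. All came from male C57BL/6 mice 2 months old whose hair had been pulled out 9 days before the time of injection, day 0, which starts a new round of hair growth. The day 0 library was from untreated skin, and the other 2 were from skin taken 1 day and 2 days after an intraperitoneal injection of cyclophosphamide, a DNA-alkylating chemotherapy drug, at 150 mg/kg. The treated skins were therefore also 1 and 2 days further into hair growth, no untreated skin of those days was among the samples, and drug and hair cycle cannot be told apart. The labels do not say how many mice went into a library. With 1 library per day there is no replicate error: every interval and p-value below covers the counting of tags only and compares libraries, not conditions.

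Ribosomal proteins bind ribosomal RNA to form the small and the large subunit of the ribosome, and a cell that makes many ribosomes keeps their messenger RNAs among its most abundant. Most of these messages begin with a run of pyrimidines, the terminal oligopyrimidine (TOP) tract, through which growth signals control their translation together. When ribosome assembly is disturbed, free Rpl5 and Rpl11 bind Mdm2, the ubiquitin ligase of p53. In growing hair follicles the matrix cells at the base divide quickly and make large amounts of protein, and they are a known target of cyclophosphamide.

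The measurement rests on short tags. Messenger RNA on oligo(dT) beads was cut with NlaIII at CATG, and MmeI then released the CATG with the next 17 bases, 21 in all, so that a message should give 1 tag from its last CATG. The tags of the stalk proteins, of the most copied members and of the members that changed are shown first, since both the gene and the place in the message that a level reports depend on them. Capitals mark the CATG, and the reading direction is 5′ to 3′.
Rplp1: CATGggcttcggtctttttga
Rplp1, second cluster: CATGgcttccgtctccgagct
Rplp0: CATGctgaacatctccccctt
Rplp0, second cluster: CATGatgcgcaaggctatcag
Rpl5: CATGctatattaactgaactt
Rpl9: CATGaacaatttgggctcttt
Rpl13a: CATGaggtcgggtggaagtac
Rpl13a, second cluster: CATGagctggggttcacaagt
Rpl15: CATGggtaagaatagtccatt
Rpl32: CATGctgcccagcggcttccg
Rpl8: CATGcctgagggtacgatcgt
Rps24: CATGgcctttatgagaagaaa
Rps4x, first cluster: CATGgtgaaactaaaaaaaaa
Rps4x, main tag in the annotated transcript: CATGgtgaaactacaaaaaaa
Rps27l: CATGcacagactgtggttctt
Rpl39l: CATGtacaactccaagcggag
Rpl3l: CATGtaagatgtctggaatgg

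On the GENCODE M21 annotation (GRCm38), the Rplp1 tag lies in coding exon 3 of 3 at chr9:61913328-61913348 on the minus strand, and it also occurs in the gene copy Gm10073. The tag of the second Rplp1 cluster, in exon 1 at chr9:61914409-61914429, covers the start of the coding sequence and belongs to 1 gene. The Rplp0 tag is in coding exon 5 of 7 at chr5:115561395-115561415 and is shared with 4 pseudogenes, while the tag of the second Rplp0 cluster, in exon 3 at chr5:115560863-115560883, belongs to 1 gene. The 2 main Rpl13a tags lie in coding exon 7 of 8 (chr7:45126193-45126213, minus strand, shared with 2 pseudogenes) and in the 3′ untranslated part of exon 8 (chr7:45125656-45125676, 1 gene). The Rpl9 tag, in the 3′ untranslated part of exon 8 of 8 at chr5:65388391-65388411, is also found in the copy Rpl9-ps6. Those of Rpl15 (exon 4 of 4, chr14:18268199-18268219) and Rpl5 (exon 8 of 8, chr5:107908959-107908979) are in 3′ untranslated sequence and in 1 gene each. The tags of Rpl32 (exon 3 of 4, chr6:115807040-115807060), Rpl8 (exon 4 of 6, chr15:76904855-76904875) and Rps27l (exon 3 of 4, chr9:66947616-66947636) are coding and in 1 gene each. The Rps24 tag (exon 4 of 6, chr14:24493383-24493403) is coding and shared with 4 pseudogenes. The Rpl39l tag is coding (exon 3 of 3, chr16:10174414-10174434), and the Rpl3l tag in exon 7 of 7 (chr17:24736050-24736070) covers the end of the coding sequence and the start of the 3′ untranslated part.

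The tables held 2731787 (day 0), 2859653 (day 1) and 2636804 (day 2) tags assigned to clusters, between 45.3% and 47.1% of the tags the authors kept. Levels are given as tags and as tags per 1000000 (CPM) of a library size scaled by edgeR's trimmed mean of M-values (TMM; factors from 0.94 to 1.03). A cluster was tested where it had 15 or more tags over the 3 libraries (13812 clusters, 48 of the 56 sense members), and it was called higher or lower at an adjusted p of 0.001 or less with at least a 2-fold ratio. The p is from a two-sided exact binomial test of the tags of 2 libraries, adjusted by the Benjamini-Hochberg method over all 13812 clusters. Keratins, loricrin and filaggrin of the epidermis, a check of the tissue label, summed to 11881, 16169 and 15254 CPM on days 0, 1 and 2.

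The sense-strand tags of ribosomal proteins took a smaller part of the library on each successive day. They numbered 223463, 183257 and 149123 on days 0, 1 and 2, which is 8.18%, 6.41% and 5.66% of the assigned tags, or 79457, 68025 and 54850 CPM. The log2 ratio of the sums was -0.22 at day 1 and -0.53 at day 2 against day 0 (counting intervals of 95%, -0.23 to -0.22 and -0.54 to -0.53). In bulk skin, fewer cells of a type and less RNA per cell cannot be told apart.

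Among the 48 tested sense clusters, 5 fell and 0 rose at day 1, beside 1.43% lower and 1.53% higher among all clusters. At day 2, 8 fell and 0 rose, beside 3.08% and 3.45%. The median log2 ratio of the 48 was -0.31 at day 1 and -0.50 at day 2, against -0.02 and 0.01 over all clusters tested. A ratio below 0 was found for 33 of the 48 at day 1 and 41 of the 48 at day 2, where 51.3% and 49.6% of all clusters lay below 0. With the same adjusted p set at 0.05 and no minimum fold, 17 members were lower and 7 higher at day 1 (35.4% and 14.6%, beside 11.1% and 11.2% of all clusters), and 25 were lower and 2 higher at day 2 (52.1% and 4.17%, beside 15% and 14.2%). Taking libraries of 1 group to vary by a coefficient of variation of 0.2, with edgeR's exact test at an adjusted p of 0.05, left 3 members lower at day 1 (0.0941% of all clusters) and 5 at day 2 (0.695%). At 0.2, Rpl9 and Rps27l lost the call at day 1, and Rplp0, Rpl15 and Rpl5 lost it at day 2. An assumed 0.4 left 0 and 1, the 1 being Rpl32 (0.00724%). The low-abundance filter left out 8 sense clusters, none with more than 14 tags in all: a further Rps4x, a further Rpl22l1, a further Rps10, a further Rpl14, Rpl12, Rpl18, Rpl26 and Rpl27a.

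**Figure D1:**
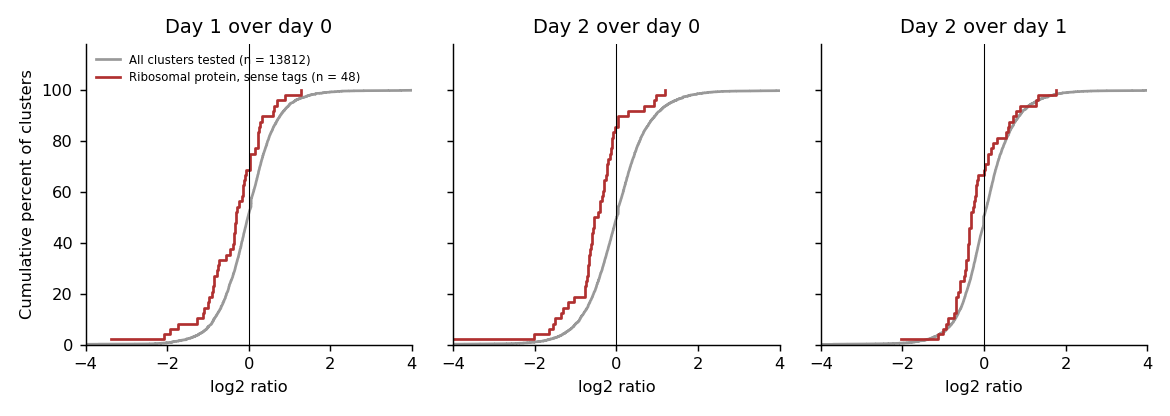
Cumulative percent of clusters (vertical axis) by log2 ratio of TMM-scaled tags (horizontal axis) in each pair of libraries, for the 48 tested sense clusters of ribosomal proteins (red) and all 13812 clusters tested (grey). The red curve lies left of the grey one over most of its range at day 2 over day 0, where the medians are -0.50 and 0.01; 1 member, Rpl32, lies beyond the left edge there.

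From day 1 to day 2, 0 sense members fell and 1, Rpl39l, rose, beside 1.11% and 1.83% of all clusters. The median was -0.32 with 33 of 48 below 0, against -0.01 and 50.6% for all clusters. At an adjusted p of 0.05 with no minimum fold, 23 were lower and 4 higher (47.9% and 8.33%, beside 10.7% and 9.86% of all clusters). This comparison and those with day 0 share libraries, so the 3 sets of counts are not independent of each other.

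Read by abundance, the members looked different on day 1. Of the 21 sense clusters with a mean of 100 CPM or more, 11 lay below 0 at day 1 (median -0.11) and 20 at day 2 (median -0.57). All clusters of that abundance had medians of 0.10 and -0.03, with 41.6% and 52.2% below 0. From day 1 to day 2, 20 of the 21 lay below 0 (median -0.39). All clusters as abundant then had a median of -0.13, with 62.3% below 0. Calls lower among those 21 numbered 2 at day 1 and 4 at day 2, beside 1.39% and 4.28% of the 1660 clusters as abundant. The 1 cluster of the 21 that lay above 0 at day 2 was Rps4x, described below.

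**Figure D2:**
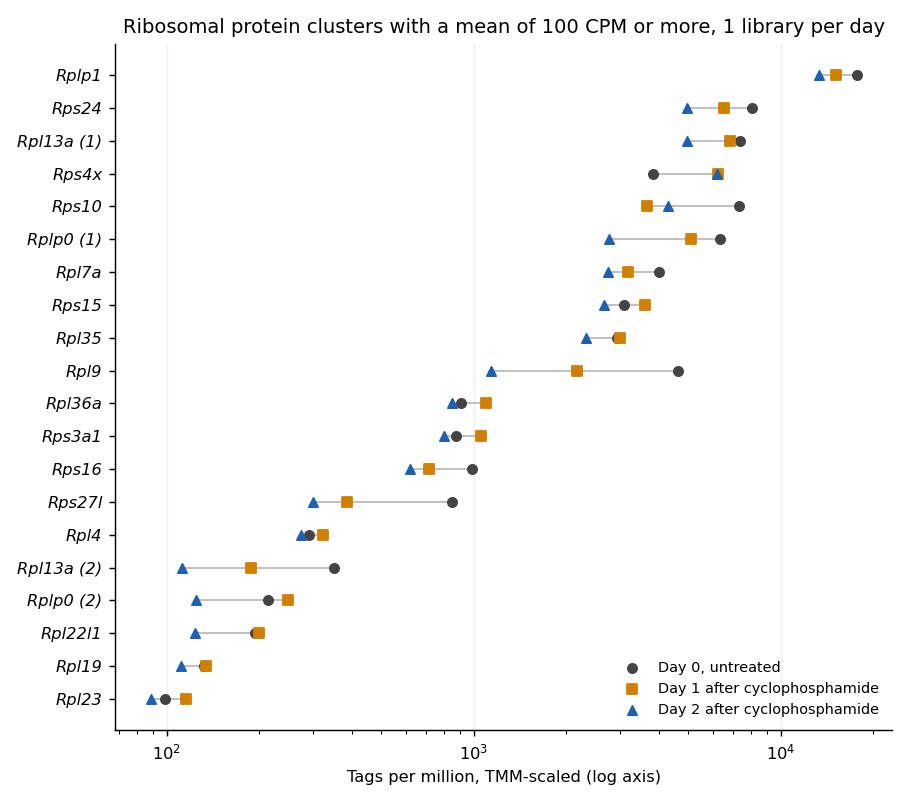
CPM on a log axis (horizontal) for 20 of the 21 sense clusters with a mean of 100 CPM or more, with 1 symbol per library; where a gene has several such clusters they are numbered by abundance. The day 2 symbol is the lowest of the 3 for all but Rps4x and Rps10, and Rplp1 spans 17707 to 13318 CPM.

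The stalk of the large subunit, built by Rplp0 with Rplp1 and Rplp2, recruits translation factors to the ribosome. Its 4 clusters summed to 24334, 20609 and 16281 CPM, with 1 of the 4 called lower, at day 2, beside 3.08% of all clusters. Rplp1 gave the most tags of any member, 49800, 40753 and 36208, and its log2 ratios were -0.23 at day 1 and -0.41 at day 2. The days were in the same order for the main Rplp0 cluster, with 17809, 13771 and 7507 tags. Rplp0 fell at day 2 by 1.2 on the log2 scale (interval -1.24 to -1.16), a 2.29-fold drop, while its day 1 ratio of -0.31 was short of 2-fold. The call rests on a tag shared with 4 pseudogenes, and all other copies of the cluster (310, 553 and 186) are 1 base away from that tag. No sense cluster was matched here for Rplp2.

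A second cluster of each stalk gene reads a tag found in that gene alone. For Rplp0, this cluster had 603, 671 and 339 tags, high on days 0 and 1 and low on day 2, with ratios of 0.22 and -0.78 and, from day 1 to day 2, -0.997 (interval -1.19 to -0.81), at the edge of 2-fold and a call (-1.01) with DESeq2 size factors. For Rplp1 the second cluster reads the start of the coding sequence and had 223, 324 and 211 tags, so day 1 was the high library and days 0 and 2 were close. Its log2 ratios were 0.60 (interval 0.35 to 0.85) and -0.03 (interval -0.31 to 0.25), apart from those of the main tag on both days. In the annotated messages, 1 further CATG follows the main tag of each second cluster. The tags of the main Rplp0 and Rplp1 clusters are at the last site.

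Rpl5 chaperones the smallest ribosomal RNA into the large subunit together with Rpl11. It had 200, 50 and 94 tags, high on day 0, lowest on day 1 and in between on day 2. Rpl5 fell at day 1 by 1.93 (interval -2.42 to -1.48; adjusted p = 1.8e-19 by the exact binomial test) and fell at day 2 by 1.04 (interval -1.41 to -0.68; adjusted p = 4.2e-08). The day 2 level stood above day 1 by 0.89, short of 2-fold, and the day 2 ratio was -0.996 and no longer a call with libraries scaled to all the tags the authors kept. No sense cluster was matched here for Rpl11.

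The core of the large subunit had 26 sense clusters, 21 of them tested, and summed to 21124, 17169 and 12738 CPM. Of the 21, 3 fell at day 1 and 5 at day 2, beside 1.43% and 3.08% of all clusters, with medians of -0.35 and -0.55, and 20 of the 21 lay below 0 at day 2. Rpl9, a protein beside the site where elongation factors bind, was the most abundant of those that fell, with 13049, 5842 and 3086 tags. Each library held fewer Rpl9 tags than the one before. Its log2 ratios were -1.10 (interval -1.14 to -1.05) at day 1 and -2.03 (interval -2.09 to -1.97) at day 2, a 4.09-fold drop, on a tag it shares with Rpl9-ps6. The other copies of the cluster (67, 47 and 17) are all 1 base away from that tag.

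Rpl32, another protein of the large subunit, had the steepest ratio of the 48. Its tags numbered 244 on day 0, 22 on day 1 and 5 on day 2, and nearly all were copies of the exon 3 tag shown above. Rpl32 fell by 3.38 at day 1 (interval -4.11 to -2.78; adjusted p = 1.9e-44 by the exact binomial test) and fell by 5.43 at day 2 (interval -7.20 to -4.32; adjusted p = 8.7e-62). The last count is small, and the interval of the day 2 ratio is accordingly wide. The annotated message has 1 further CATG after this tag, so the tag is not the one from the last site.

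Rpl15, which is needed to process the RNA of the large subunit, had 304, 69 and 115 tags. Day 1 was the low library, and day 2 was between the other 2. Rpl15 fell by 2.07 at day 1 (interval -2.48 to -1.70; adjusted p = 2.1e-32 by the exact binomial test) and fell by 1.35 at day 2 (interval -1.68 to -1.04; adjusted p = 5.5e-18). The day 2 level stood above that of day 1 by 0.72, which is short of 2-fold.

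Rpl8, a core protein near the peptidyl transferase centre, had 328, 173 and 108 tags, all from sites in 1 gene. It fell at day 2 by 1.55 (interval -1.88 to -1.24), after a day 1 ratio of -0.86 that was not called. The day 2 call was lost without its most copied tag (-0.74). In the annotated message 1 further CATG follows that tag, so it is not from the last site.

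Rpl13a, a large subunit protein that is also known to silence translation of inflammatory messages when released from the ribosome, had 3 tested clusters. The largest, with 20670, 18355 and 13481 tags, gave log2 ratios of -0.11 and -0.57. The cluster of the 3′ untranslated tag had 989, 508 and 305 tags, fewer in each library than in the one before, and ratios of -0.90 and -1.65 (interval -1.84 to -1.46), the latter a call. Summed over the gene the day 2 ratio was -0.60 and not a call. The coding tag holds 98.8% of the copies of its cluster, matches 2 pseudogenes and is followed by 4 further CATG sites in the annotated message, whereas the 3′ untranslated tag is the last site and matches 1 gene.

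Other abundant members of the large subunit had smaller ratios. Rpl7a had 11261, 8541 and 7436 tags and ratios of -0.34 and -0.55. Rpl35, at the mouth of the exit tunnel, had 8251, 8049 and 6315 tags, level on days 0 and 1 and lower on day 2 (0.03 and -0.34). Rpl36a (2561, 2945 and 2312 tags) and Rpl4 (816, 871 and 745 tags; its loop lines the exit tunnel) were within 0.30 of 0 on both days on the log2 scale. Rpl22, an RNA-binding protein that ribosomes can do without, had 52, 30 and 20 tags in one cluster (-0.72 and -1.31, not called at this depth) and 4, 10 and 8 in another.

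**Figure D3:**
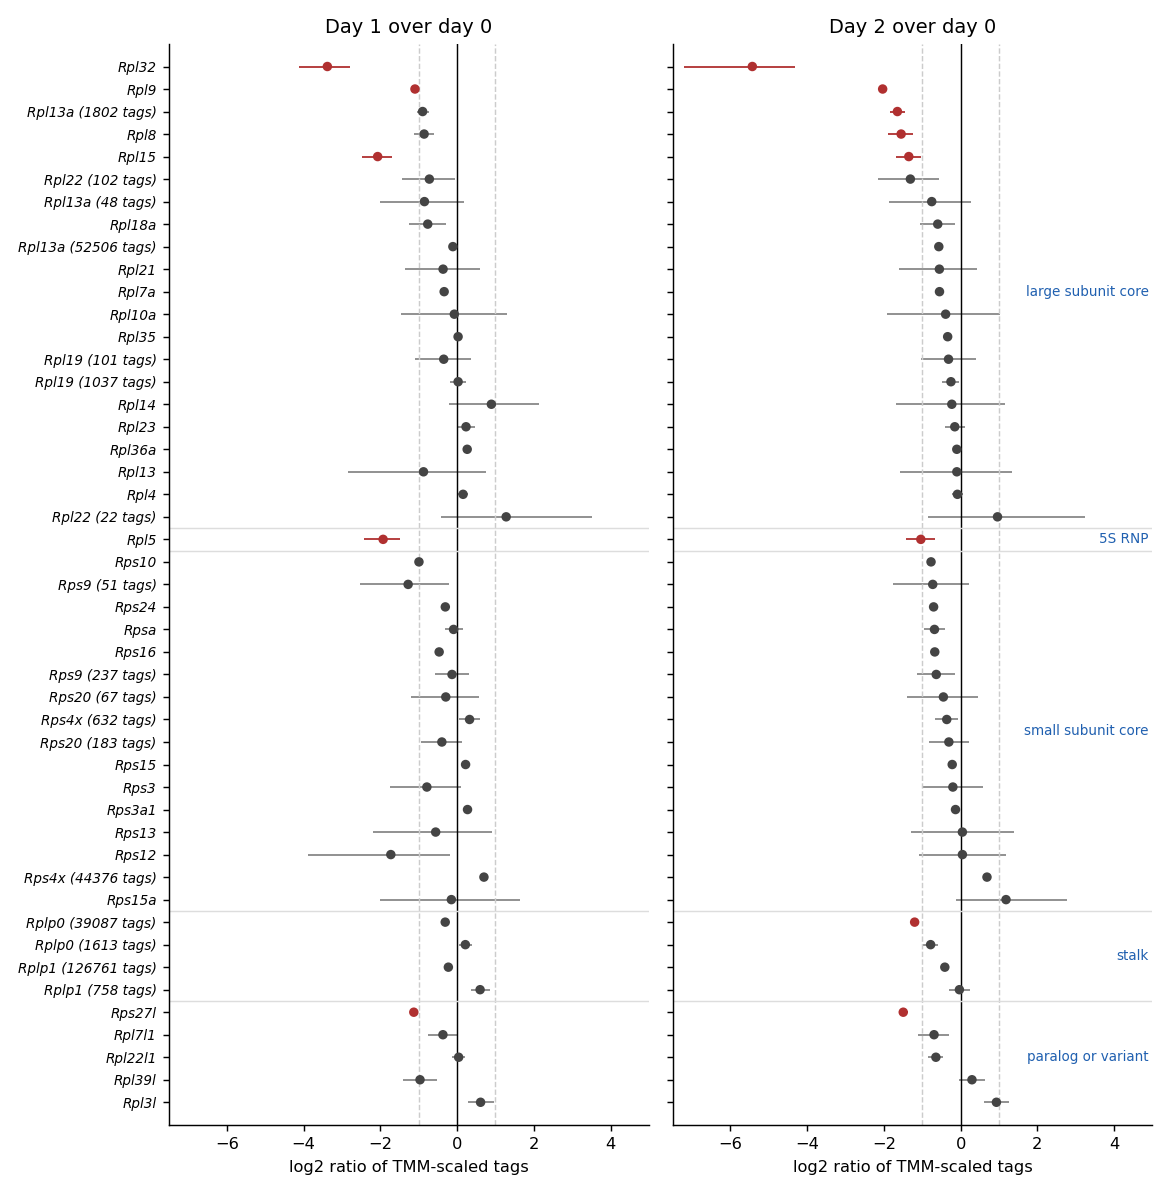
Log2 ratio of TMM-scaled tags (horizontal axis) of 47 of the 48 tested sense clusters on day 1 (left) and day 2 (right) over day 0, with 95% counting intervals, grouped by role; red marks calls and dashed lines mark 2-fold. The 5 calls at day 1 and 8 at day 2 are all to the left of 0, and Rpl32 at day 2 reaches -5.43; clusters of the same gene are told apart by their tags summed over the libraries.

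The small subunit had 19 sense clusters with 17 tested, and 0 were called on either day, beside 1.43% and 3.08% of all clusters called lower. The medians were -0.29 and -0.36, 13 of the 17 lay below 0 on each day, and the sum went from 32747 to 29514 and 25200 CPM. Rps24, which is needed to process the precursor of the small subunit's RNA, had 22634, 17530 and 13439 tags, lower in each library than in the one before, and log2 ratios of -0.31 and -0.70.

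Rps10, which lies at the channel where the message enters, differed in its order. It had 20573, 9897 and 11659 tags, so the low library was day 1. The day 1 ratio was -0.99 (interval -1.03 to -0.96), just short of 2-fold and a call (-1.07) with libraries scaled to all the tags the authors kept, and the day 2 ratio was -0.77. Its tag spans the junction of exons 2 and 3 and occurs in 2 pseudogenes.

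Other small subunit members were higher on day 1 than on day 0 by a little. Rps15 had 8678, 9694 and 7210 tags (0.22 and -0.22), and Rps3a1 had 2467, 2854 and 2176 (0.27 and -0.13). Rps16, in contrast, had 2774, 1922 and 1682 tags and ratios of -0.47 and -0.67. Rpsa, known also as the laminin receptor, had 317, 285 and 191 tags and ratios of -0.09 and -0.68. Rps3, which doubles as a DNA repair nuclease, had 31, 17 and 26 tags, too few to set the libraries apart (interval -1.75 to 0.09 at day 1).

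Rps4x, the X-linked form of a small subunit protein, held the one abundant cluster with more tags after treatment: 10789, 16787 and 16800. Days 1 and 2 were alike and above day 0, with log2 ratios of 0.70 (interval 0.66 to 0.73) and 0.69 (interval 0.65 to 0.72), which is not a call. The main tag of this cluster ends in a run of A bases, matches no annotated transcript exactly, and was placed in Rps4x by the cluster's description. A message of any gene that has GTGAAACT between its last CATG and the poly(A) tail would give the same tag. The tag of the annotated Rps4x message starts in the last exon at chrX:102184941-102184954, minus strand, and runs out into the poly(A) tail. That tag had 512, 880 and 759 copies, also higher after treatment. The 3 internal tags of Rps4x, in coding exons, summed with other tags shared with pseudogenes to 218, 264 and 164 copies, with ratios of 0.34 and -0.36. Without the first cluster, the sense tags summed to 75621, 61793 and 48670 CPM.

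Paralogs and variants were 6 clusters, 5 tested. Rps27l, a paralog of Rps27 that p53 is known to induce, had 2382, 1044 and 817 tags, and both treated libraries lay below day 0. Rps27l fell by 1.13 at day 1 (interval -1.23 to -1.02; adjusted p = 5.3e-104 by the exact binomial test) and fell by 1.49 at day 2 (interval -1.61 to -1.38; adjusted p = 5.4e-162). Nearly all its copies are of 1 tag in 1 gene, read from the last CATG site.

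Rpl39l, a paralog of Rpl39 known mainly from the testis, had 133, 65 and 158 tags, with day 1 the low library. The day 1 ratio was -0.97 and the day 2 ratio 0.30, neither called (the first becomes a call, -1.04, with libraries scaled to all kept tags), and Rpl39l rose from day 1 to day 2 by 1.26 (interval 0.84 to 1.71; adjusted p = 1.1e-08 by the exact binomial test). Rpl3l, the paralog of Rpl3 in striated muscle, had 120, 176 and 222 tags, more on each later day, with ratios of 0.61 and 0.93 (interval 0.61 to 1.27) that did not reach 2-fold. The 8 genes of the skeletal muscle list, such as Acta1 and Ckm, were all above 0 on both days and summed to 8091, 12450 and 17281 CPM; the part of muscle tissue in the Rpl3l values was not tested. Rpl22l1 had 545, 537 and 337 tags (0.04 and -0.64), level until day 1. Rpl7l1, a paralog of Rpl7 in the nucleolus, had 139, 103 and 83 (-0.37 and -0.69).

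Of the 9 clusters read on the opposite strand, all were tested and all lay below 0 on both days. They summed to 4086, 3427 and 2670 tags, and 1 fell at day 1 and 3 at day 2, beside 1.43% and 3.08% of all clusters. Opposite to Rpl15 there were 216, 101 and 79 tags, a fall of 1.03 at day 1 and of 1.40 at day 2. Opposite to Rpl3 there were 121, 66 and 53 tags, and opposite to Rps3a1 91, 62 and 40, each a fall of 1.13 at day 2. The most copied tags opposite to Rpl15, Rpl3 and Rps3a1 are also opposite to 10, 7 and 7 pseudogenes. None of these calls held with an assumed coefficient of variation of 0.2. Rps16 (1737, 1613 and 1163), Rplp1 (848, 715 and 550), Rps27 (177, 107 and 114), Rpl10 (155, 134 and 105) and Rpl27 (148, 95 and 130) were among those with no call. No sense cluster was matched here for Rps27, Rpl10, Rpl27 or Rpl3.

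The opposite-strand tag of Rplp1 begins at the same CATG as the main sense tag and runs the other way, as these sequences show, with the CATG in capitals.
Rplp1, sense: CATGggcttcggtctttttga
Rplp1, opposite strand: CATGtcatcttcagactcctc

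The opposite-strand tag, at chr9:61913345-61913365 on the plus strand, had 842, 713 and 544 copies beside 49389, 40381 and 35904 for the sense tag. For Rps16 the copies at a shared site were 1737, 1613 and 1163 beside 2761, 1912 and 1672. Tags opposite to ribosomal protein genes were not limited to the member clusters. Over all clusters there were 46 such tags from 32 genes, 16 of which had no sense cluster, with 18677, 14772 and 11842 copies. Of the 41 with 15 or more copies, 32 were below 0 at day 1 and 37 at day 2, with medians of -0.28 and -0.57. The tags opposite to any gene (1305 with as many copies) had medians of -0.13 and -0.11, with 739 and 725 below 0.

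Of the 10 clusters matching neither strand, 3 were tested and 0 called. The largest, an expressed sequence described as Rplp1, had 419, 512 and 515 tags (0.35 on both days). One of those described as Rps6, the substrate of the S6 kinases, had 29, 8 and 23 tags (-1.74 and -0.28), and the third, described as Rps14, had 7, 2 and 10.

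Much of the family is shared in sequence. Of the copies in the sense clusters, 14.6%, 15% and 14.1% on days 0, 1 and 2 came from tags found in 1 gene only. A further 52.1%, 50.2% and 48.3% came from tags also in pseudogenes, including 3.69%, 4.39% and 4.23% from 2 tags (Rpl35 and Rps4x) that are in another gene copy as well. Another 27.9%, 25.2% and 26.1% came from 2 tags in another gene copy but in no gene annotated as a pseudogene, those of Rplp1 and Rpl9. Pseudogenes were counted here by the annotated gene type. The copy that shares the Rpl9 tag, Rpl9-ps6, has the name of a pseudogene but was not counted as one. The Rps4x tag ending in A bases took 4.5%, 8.49% and 10.6%. Summed over their class, the single-gene tags gave log2 ratios of -0.19 and -0.59, and those shared with pseudogenes but no other gene copy -0.30 and -0.67, so that both kinds were lower in each treated library. In 30 clusters that could be measured on single-gene tags alone, 5 were called lower at day 1 and 6 at day 2. Of the 11623 clusters tested on such tags, 1.47% and 3.21% were called lower. The medians of the 30 were -0.52 and -0.57. The 5 at day 1 are not the same 5 as on all tags. Rpl9 has no single-gene tag and is not among them, and Rps24 was called on 34, 8 and 19 such tags.

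**Figure D4:**
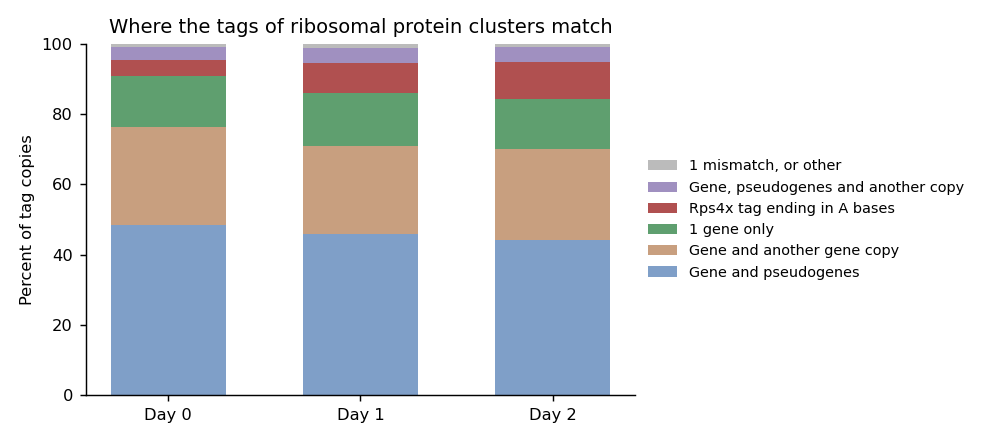
Percent of the tag copies of the 56 sense clusters (vertical axis) by where the tag matches, stacked from 0 to 100 for each library. Tags in 1 gene only hold 14.6%, 15% and 14.1% on days 0, 1 and 2, while the Rps4x tag ending in A bases goes from 4.5% to 10.6%.

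Tags of the same gene did not always have the same ratios. For Rpl13a, tags shared with pseudogenes gave -0.10 and -0.57, and tags in 1 gene gave -0.89 and -1.61. For Rplp0 the shared tag gave -0.34 and -1.21 and single-gene tags 0.21 and -0.78, and for Rplp1 the shared tag gave -0.23 and -0.41 and the single-gene tag 0.60 and -0.03. The intervals of the 2 kinds did not overlap in these genes on either day. The 2 kinds also differ in site. In Rplp0 and Rplp1 the single-gene tags are not at the last CATG, and in Rpl13a the shared tag is not. Sharing and place in the message cannot be told apart in these genes. Rps24 had few single-gene tags (34, 8 and 19), all but a few from a transcript annotated as non-coding, with ratios of -1.96 (interval -3.35 to -0.89) and -0.78. Rpsa was split between a tag across exons 4 and 5 with 178, 208 and 147 copies and an exon 5 tag with 122, 68 and 38, the first highest and the second lower on day 1. Rpl4 was alike on both kinds, with 0.21 and -0.06 on shared tags and 0.05 and -0.12 on single-gene tags.

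**Figure D5:**
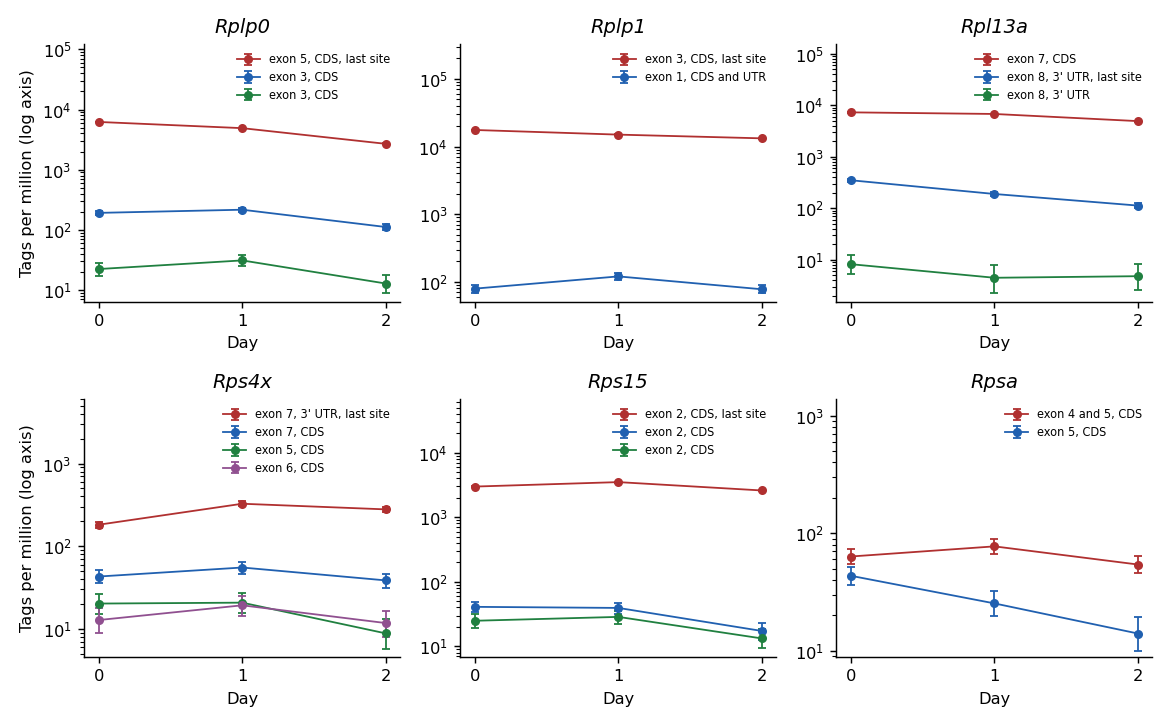
CPM on a log axis (vertical) by day (horizontal) for each annotated tag with 40 or more copies in 6 genes, with 95% counting intervals; the legend gives the exon and its kind (CDS, coding; UTR, untranslated) and marks the last CATG site. The lines of Rpl13a, Rplp1 and Rpsa are not parallel, and the Rps4x tag that ends in A bases is left out because it matches no annotated transcript.

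Most copies came from the last CATG of an annotated message: 82.4%, 77.3% and 76.6% of all sense copies on days 0, 1 and 2, or 87.1%, 85.5% and 86.6% of those placed in an annotated message of the gene. By the deposited site number, 67.8%, 66.5% and 63.05% of the sense copies were at the 3′-most site, beside 69.1%, 71.1% and 69.7% for all clusters. The most copied tag of a cluster was at the last site in 27 of the 56, and it held over 90% of the copies in 43. The annotation lists 86 genes under the same naming rule. A sense cluster was found for 43 of them, and in 51.2% of those the last tag also occurs in pseudogenes. For the 43 without one the share was 67.4%, and 1 of them has no CATG at all (Rps21).

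The promoters of the members were searched for 2 short pyrimidine strings around the start site. A match need not lie at the start of the message, and a window without one can still hold a pyrimidine run. The search therefore does not tell which members carry a TOP tract. RefSeq (GRCm38.p6) start sites were matched for 42 of the 54 symbols, 48 starts in all, and the letters CTTTC or CTTCC were searched on the gene's strand from 20 bases before to 10 bases from the start. They were found at 14 of the 48 starts (29.2%), beside 10.6% of the 32851 promoters in the table. The opposite strand of the same windows held them at 10.4% and 10.2%. Of the members called lower, Rpl15 and Rpl5 hold a match, while the windows of Rplp0, Rpl9, Rpl13a and Rps27l hold none. No start site was matched for Rpl32 or Rpl8. The members called lower held a match at 2 of 7 starts (28.6%), the same share as all symbols with a sense cluster (12 of 42 starts). The 2 with a match are shown beside Rps10 and Rpl7a, which also hold one but were not called, with the match in capitals.
Rpl15, chr14:18270977-18271006, minus strand: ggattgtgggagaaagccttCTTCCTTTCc
Rpl5, chr5:107900508-107900537, plus strand: ctCTTTCtcacgtcgcttgcgtgctggtgg
Rps10, chr17:27635235-27635264, minus strand: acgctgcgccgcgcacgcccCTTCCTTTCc
Rpl7a, chr2:26910787-26910816, plus strand: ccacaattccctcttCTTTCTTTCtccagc

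Genes outside the naming rule were read by the same test. Rack1, a protein of the small subunit without an Rps name, had 11159, 7494 and 6733 tags (-0.51 and -0.68), and Fau, which encodes Rps30 as a fusion, had 583, 579 and 442 (0.05 and -0.35). Of the ribosome biogenesis genes, 38 of 46 listed were tested: 1 fell at day 1, Pes1 of the large subunit processing complex (-1.01). At day 2, 4 fell: the snoRNP proteins Fbl (-1.06) and Nhp2 (-1.06), the methyltransferase Emg1 (-1.01) and the RNA polymerase subunit Polr1c (-1.03). All clusters were called lower in 1.43% and 3.08% on the same days. None of the 38 rose on either day, and their medians were -0.23 and -0.40.

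Other TOP messages, 18 tested, had medians of 0.10 and -0.21. Of these, 2 were called lower at day 1 and 1 at day 2, beside 1.43% and 3.08% of all clusters. From day 1 to day 2, 1 was called higher, beside 1.83%. Hnrnpa1, which binds nascent RNA, fell on both days (-1.27 and -1.45), and the intermediate filament gene Vim fell at day 1 (-2.85) and rose from day 1 to day 2 (2.21). A further list held regulators of ribosomal protein synthesis, such as Mtor, Larp1 and Myc, and also regulators of p53. Of its 18 tested genes, 0 were called against day 0. From day 1 to day 2, 1 fell, Max, the partner of Myc (-1.40), beside 1.11% of all clusters.

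Markers of other cell types also differed in level between these libraries, and their part in the ribosomal protein values was not tested. The 7 inner root sheath genes summed to 42120, 61967 and 24613 CPM on days 0, 1 and 2, and the 6 hair matrix genes to 1035, 1019 and 607. The 6 fibroblast genes gave 2951, 1873 and 3273 CPM and 4 adipocyte genes 3586, 2380 and 1868. The 8 macrophage genes gave 272, 327 and 694, and 5 erythroid genes 1810, 1617 and 141. Hair shaft (7393, 11360 and 7421), sebocyte (337, 303 and 483), endothelial (57.2, 49.7 and 83.9), melanocyte (399, 594 and 540) and proliferation genes (731, 749 and 807) completed the lists. Lymphocyte markers stayed under 2 CPM, with no cluster found for Cd3e, Cd3g or Ms4a1.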

How the data were processed

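The deposited tables list 21-base tags by UniGene cluster, with the copy number per cluster as raw counts and the same counts per 1000000 kept tags, a deposited RPM value headed TPM per the file headers. The smallest copy number listed is 2. Libraries were sequenced on an Illumina Genome Analyzer and annotated against a gene database of the sequencing centre, per the labels. The UniGene build, aligner and mismatch limit were not given in the sources used here.

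Clusters were named from their descriptions and from exact matches of their tags to GENCODE M21 transcripts (GRCm38). Counts were scaled with TMM (edgeR 4.0.16). With 1 library per group no quasi-likelihood model could be fitted, and pairs of libraries were compared by a two-sided exact binomial test (scipy 1.17.1), checked on simulated data, with Benjamini-Hochberg adjustment over 13812 clusters of 15 or more tags. Ratios used 0.5 added tags, intervals are 95% Clopper-Pearson, and intervals and p-values cover counting error only, since PCR copies carry no molecular identifiers.

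The members and the gene and marker lists were chosen with earlier results of these data known. Named members were those called, the 5 with the most tags, the most copied of each role, a fixed set of members, and those whose single-gene tags differed from all tags by over 1 on the log2 scale; further members beside them are named for their abundance or role, after their values were seen. Some members and listed genes enter the counts and sums but are not reported here by name.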

Additional observations from a re-analysis of the deposited data

How the results depend on the processing

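No paired analysis was possible because each group has 1 library, which also leaves no replicate to omit. The alternative with tags unique in the genome was not run, since no genome sequence was used here. No call of a named member changed direction under the alternatives run, but the summed level was higher on day 1 than on day 0 without the most copied tags. Of the copies then left, 75.6% are 1 base away from the tag left out, as are all of those of the main Rplp0, Rpl9 and Rps27l clusters, so that this alternative is no separate measurement of these. Without the most copied tags, 24 members were tested, against 48 with them. The share of all clusters called in that setting is not given here. Members called lower at day 1 (5) became 1 without the most copied tag of each cluster and 9 at 1.5-fold (3.82% of all clusters). They became 3 with an assumed coefficient of variation of 0.2 (0.0941%) and 0 with one of 0.4 (edgeR exact test at an adjusted p of 0.05). Those lower at day 2 (8) became 4, 15 (6.22%), 5 (0.695%) and 1 (0.00724%) in the same order, the 1 being Rpl32. With libraries scaled to all the tags the authors kept, 7 were lower on each day, beside 2% and 2.75% of all clusters. Rps10 and Rpl39l gained the call at day 1, and Rpl5 lost it at day 2. Members called higher (0) became 2 at 1.5-fold on both days, beside 4.14% of all clusters at day 1 and 5.8% at day 2. Past 2-fold with no test they became 1 on both days. From day 1 to day 2, 0 lower became 1 with DESeq2 size factors, beside 159 of the 13812 clusters. The same 0 became 2 without the most copied tag, 9 at 1.5-fold (3.13%) and 2 with no test. The 1 higher became 2 on the authors' kept tags, beside 358 of the 13812 clusters, and 3 with no test. That 1 became 0 without the most copied tag or with either assumed variation. The share of all clusters past 2-fold with no test is not given here. The cause of these changes was not tested.

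The median at day 1 was -0.60 on tags of the deposited 3′-most site (27 members tested) and -0.059 without the most copied tags (24 tested). The latter setting gave -0.71 at day 2 and -0.53 from day 1 to day 2. Summed CPM on days 0, 1 and 2 was 80021, 65191 and 56831 on the authors' kept tags, 53900, 45259 and 34583 on the 3′-most site, 11606, 10211 and 7709 on single-gene tags, 1251, 1416 and 998 without the most copied tags, 81076, 69498 and 56037 over all 75 clusters, and 75621, 61793 and 48670 without the first Rps4x cluster (the last 2 chosen after seeing the data). With DESeq2 size factors it was 79097 and 68558 on days 0 and 1. Scaling to the kept tags moved the lower share of all calls from 48.3% to 63.7% at day 1 and from 37.8% to 23.3% from day 1 to day 2, with medians of all clusters at -0.09 and 0.10. Named members kept their side of the threshold in 353, 344 and 358 cases in the 3 comparisons, lost a call in 11, 20 and 2, and gained one in 10, 10 and 14.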

Other observations

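Copies 1 base away from a cluster's main tag were counted for the 11 members whose main tag was most copied. Per 1000 copies of the main tag they numbered from 5.16 to 13.6 in every library for 9 of the 11. Rplp0 had 17.7, 41.8 and 25.4 on days 0, 1 and 2, and the Rps4x tag ending in A bases had 73.1, 79.1 and 64.8, most of which are the tag of the annotated Rps4x message itself (512, 880 and 759 of 735, 1231 and 1022 copies). In Rplp0, position 11 of the tag, counted from 1 at the C of CATG, alone held 10.1, 32.5 and 16.9 per 1000, which is 176, 430 and 124 copies.

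Of the 46 tags opposite to ribosomal protein genes, 7 begin at the CATG that holds the start codon and so read out through the 5′ untranslated part. They held 37.6% of the copies, with 6406, 5788 and 4816 on days 0, 1 and 2. The largest was opposite to Rps25, with 2981, 3583 and 2532 copies, and the next opposite to Rpl41, with 2634, 1572 and 1670, on a tag that is also opposite to Gins1 and Gm10076. A second tag opposite to Rps25, at its last CATG and also opposite to 2 pseudogenes, had 1142, 495 and 416 copies, with log2 ratios of -1.14 and -1.41 against 0.33 and -0.19 for the first. Opposite to Rpsa, 2575, 1729 and 1288 copies of a tag that is also opposite to 11 pseudogenes stood beside 317, 285 and 191 sense tags. Neither Rps25 nor Rpl41 had a sense cluster.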
